A study of Rattus norvegicus with 42 samples.

Results

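The lungs of air-exposed rats on a high-fat diet were compared with those of air-exposed rats on a regular diet 9 months after the exposure. The comparison holds 12 of the 42 libraries of the study, and its rats are defined by their diet, exposure and time labels: 6 from rats given 60% of calories as fat and 6 from rats given 18%. All were male Fischer 344 rats, 3 months of age when bought and housed 3 per cage. They ate their diet for 2 weeks before and throughout the rest of the study. Both groups inhaled clean air for 6 hours per day on 5 days, as the controls of rats that breathed crystalline silica at 15 mg per cubic metre. Ribosomal-RNA-depleted, strand-marked total RNA of a piece of whole lung was sequenced, 1 library per rat. Each value is therefore an average over all lung cell types, and fewer cells of a type cannot be told apart from less RNA per cell. The rats fed the same diets in air and killed at 3 months (5 high-fat, 4 regular) and the silica rats at 9 months (6 high-fat, 5 regular) serve below as further comparisons of diet.

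The lung meets dietary fat in several cell types. Alveolar type 2 cells make the lipids of surfactant, alveolar macrophages take up and degrade spent surfactant, and both handle cholesterol and fatty acids through the nuclear receptors of the PPAR and liver X receptor families. Fatty acids bound by PPARs raise genes of fatty acid oxidation, and sterol-sensing SREBP factors raise those of sterol and fatty acid synthesis when sterols are low. The molecular clock, in which REV-ERB repressors encoded by Nr1d1 and Nr1d2 oppose the activator BMAL1, is tied to feeding and to lipid metabolism. The aryl hydrocarbon receptor senses planar ring compounds, and Cyp1a1, a cytochrome P450 that oxidises them, is its best known target.

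The 2 groups differed as libraries before any gene was compared. Total counts ran from 4554669 to 8319382 in the high-fat group and from 4333672 to 7510805 in the regular group. The share of counts on the ribosomal RNA symbols Rnr1 and Rnr2 was 4.62% at the lowest, 6.69% at the median and 7.19% at the highest in the high-fat rats, against 0.375%, 0.998% and 2.29% in the regular-diet rats. The groups did not overlap, and the means differed by 4.99 percentage points (two-sided exact permutation test, p = 0.0021645, the smallest that 6 against 6 can give, adjusted p = 0.00541 over 10 library measures). At 3 months the share lay between 0.605% and 1.66% in all 19 libraries. At 9 months it was 2.60% to 5.35% in the regular-diet silica rats and 7.29% to 7.85% in the high-fat silica rats. The symbols Rn18s, Rn28s and Rn45s had 0 counts in all 42 libraries, and the files do not show whether Rnr1 and Rnr2 name cytosolic or mitochondrial ribosomal RNA. The share on cytosolic ribosomal protein genes and the TMM scaling factor were lower without overlap in the high-fat rats, each with an adjusted p of 0.00541 in the same exact test. Lower with overlap were the summed share on Rmrp and Terc (means of 0.504% and 0.691%, exact test, adjusted p = 0.0173) and that on histone genes (exact test, adjusted p = 0.0361). Rmrp and Terc were the only 2 symbols found of a list of small noncoding RNAs. No small nucleolar, 7SK or 7SL RNA is in that share. All of these shares are of totals that include Rnr1 and Rnr2, so a higher share on those lowers the others. The ratio of the high-fat to the regular-diet mean was 0.89 for ribosomal protein genes, 0.73 for Rmrp and Terc and 0.94 for histone genes. How far the Rnr share accounts for each was not tested.

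A second feature also coincided with diet. The complement gene symbol C4a-2 and 3 uncharacterised symbols had 0 counts in 8 of the 23 libraries at 9 months and counts in the other 15. The 8 were all 6 regular-diet air rats and regular-diet silica rats 1 and 2. C4a-2 had 21 to 174 counts in the 15 libraries, and at most 5 in any library at 3 months. LOC103693743 had 21 to 93 counts in the 15 libraries. LOC100911313 and LOC100911855 had only 1 to 7 and 1 to 8, so they mark the split weakly. Of 30045 symbols searched, these 4 had this pattern and none had the opposite one. By the tag numbers in the sample titles, the 8 libraries all came before the 15. The Rnr1 and Rnr2 share also differed across the split in the regular-diet silica group. It was 2.88% and 2.60% in rats 1 and 2, and 3.76%, 3.76% and 5.35% in rats 3, 4 and 5. Whether the split and this share are separate features was not tested. In air at 9 months this split of the libraries and the diet cannot be told apart, and only the regular-diet silica group lies on both sides of it. The main comparison was therefore repeated in 2 further fits: 1 with a term for the split, called the library-set term below, and 1 with each library's Rnr1 and Rnr2 share as covariate. The term rests on 2 against 3 silica rats, so its estimates are less precise.

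**Figure D1:**
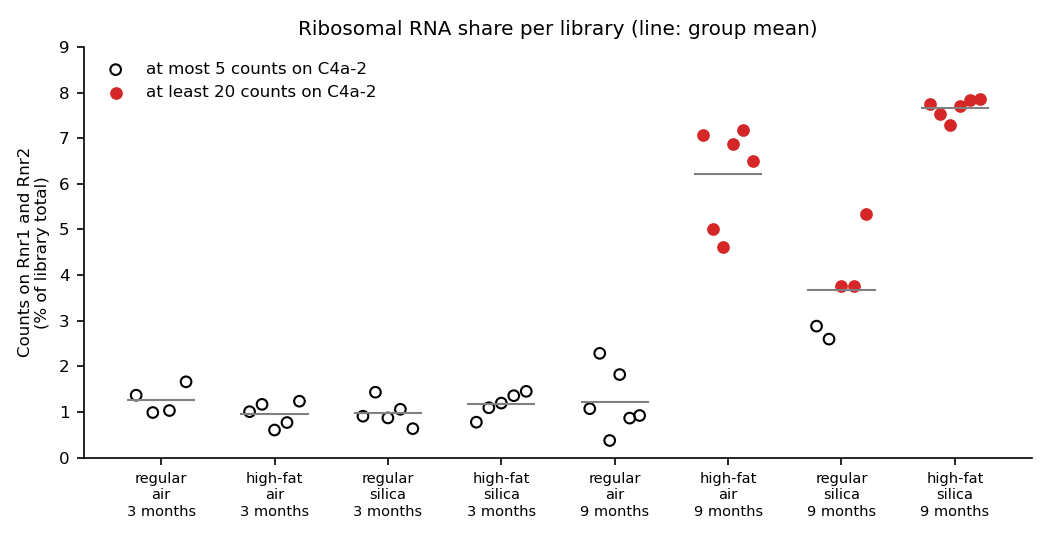
Share of counts on Rnr1 and Rnr2 (percent of the library total, vertical axis) in each of the 42 libraries by group. Filled red points have at least 20 counts on C4a-2, open points at most 5, and lines are group means. The 6 high-fat air rats at 9 months lie at 4.62% to 7.19% and are all filled, while the 6 regular-diet air rats lie at 0.375% to 2.29% and are all open.

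Across the genome, 2325 of 15276 tested genes passed an adjusted p of 0.05 in edgeR's quasi-likelihood test (15.2%), 1246 higher (8.16%) and 1079 lower (7.06%) in the high-fat rats. The counts of called members of each gene list below are to be read beside these shares. Most changes were small: 45 genes were at least 2-fold higher and 33 at least 2-fold lower, and the median size among the 2325 was 0.32 on the log2 scale, with a median standard error of 0.08. The values of all 6 rats of one diet lay beyond those of the other diet for 868 of the 2325 genes, and for 6.05% of all tested genes. With the library-set term, 95.4% of the 2325 genes kept their direction, but 16 genes passed the threshold, 12 of them among the 2325. The median size fell from 0.32 to 0.24 and the median standard error rose to 0.14. With the Rnr share as covariate, 91.7% kept their direction, the median standard error was 0.20, and only Cyp1a1 passed. How far diet, the ribosomal RNA share and the library split each account for the other calls cannot be told apart in these rats.

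Among the 12 largest rises, which leave out placeholder symbols, Cyp1a1 came first of those with counts in both groups. Its level was 8.97, 10.98 and 15.4 CPM (counts scaled to TMM-adjusted library size; lowest, median and highest) in the high-fat rats. In the regular-diet rats it was 0, 0.144 and 0.863 CPM, so every high-fat rat lay above every regular-diet rat. The log2 fold change was 5.30 ± 0.31 (SE, n = 6 and 6; adjusted p = 5.65e-14). At 3 months it was 38.1 to 86.8 CPM in high-fat and 0.172 to 0.934 CPM in regular-diet rats (log2 fold change 6.53 ± 0.49, adjusted p = 6.6e-08). Under silica at 9 months the corresponding change was 4.91 (adjusted p = 5.99e-07). The difference between the 9-month and 3-month changes did not pass the test (-1.24, adjusted p = 0.58), nor did that between air and silica (0.38, adjusted p = 0.96). With the library-set term the estimate was 5.09 and did not pass (adjusted p = 0.45); with the Rnr share as covariate it was 5.26 (adjusted p = 5.99e-05). No other of the 9 tested aryl hydrocarbon receptor genes was called higher, and 2 were lower. Nqo1, a quinone reductase, fell by 0.34 on the log2 scale (adjusted p = 0.00431). Tiparp, which limits receptor signalling, had a change of -0.23 (adjusted p = 0.036), a call lost without any 1 of 7 of the 12 rats (regular-diet rats 1, 2 and 3 and high-fat rats 2, 3, 4 and 5).

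The clock repressors rose together. Of 18 circadian clock genes 5 were higher and 2 lower in the high-fat rats, with a median log2 fold change of 0.01 against -0.01 over all tested genes. Nr1d1 was 24.7, 37.5 and 46.9 CPM (lowest, median, highest) on the high-fat diet and 6.03, 8.10 and 13.2 CPM on the regular diet. The groups did not overlap, and the log2 fold change was 2.09 ± 0.19 (adjusted p = 3.72e-07). Nr1d1 was also among the 16 genes that passed with the library-set term (1.98, adjusted p = 0.0492). Its paralogue Nr1d2 was 73.5 to 89.0 CPM against 39.5 to 51.5 CPM, a change of 0.86 ± 0.09 (adjusted p = 8.43e-07). Per3, a period protein, rose by 0.60 ± 0.11 (adjusted p = 0.000863), again without overlap. Npas2, a partner of BMAL1 related to CLOCK, rose by 0.40 (adjusted p = 8.89e-05). Arntl, which encodes BMAL1 itself, had a change of -0.18 (adjusted p = 0.086), and Dbp, a clock output factor, one of 0.52 (adjusted p = 0.0501). At 3 months Nr1d1, Nr1d2 and Per3 were called higher too (2.186, 1.03 and 1.03), and under silica (1.85, 0.59 and 0.77). Npas2 was not (-0.25 at 3 months), and its diet effect differed between the times by 0.65 (adjusted p = 0.00384). The labels used here do not give the hour at which lungs were taken.

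The starts of the 3 clock genes that were called in all 3 diet comparisons are shown because these genes moved together. They are RefSeq windows of 300 bases around an annotated start, the last 50 of them after it, on build GRCr8 and on the strand of the gene. Capitals mark CACGTG, the E-box bound by BMAL1 and CLOCK, and GCGTG or its reverse complement CACGC, the core of the aryl hydrocarbon response element. Nr1d1 has 2 annotated starts in the table, at chr10:84231763-84232062 and chr10:84229405-84229704 (minus strand). The Nr1d2 window is chr15:9954784-9955083 (plus strand) and the Per3 window chr5:166777751-166778050 (minus strand).
Nr1d1 first window: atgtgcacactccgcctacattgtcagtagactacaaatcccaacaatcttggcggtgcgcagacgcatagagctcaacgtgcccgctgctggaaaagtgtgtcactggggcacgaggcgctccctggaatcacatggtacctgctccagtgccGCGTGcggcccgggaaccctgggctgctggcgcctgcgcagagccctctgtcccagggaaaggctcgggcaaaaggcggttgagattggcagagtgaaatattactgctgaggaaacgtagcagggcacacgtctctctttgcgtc
Nr1d1 second window: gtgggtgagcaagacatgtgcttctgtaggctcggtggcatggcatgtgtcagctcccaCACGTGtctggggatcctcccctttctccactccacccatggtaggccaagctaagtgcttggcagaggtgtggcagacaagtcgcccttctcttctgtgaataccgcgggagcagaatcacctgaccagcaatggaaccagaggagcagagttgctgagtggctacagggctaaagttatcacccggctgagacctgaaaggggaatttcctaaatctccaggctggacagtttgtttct
Nr1d2: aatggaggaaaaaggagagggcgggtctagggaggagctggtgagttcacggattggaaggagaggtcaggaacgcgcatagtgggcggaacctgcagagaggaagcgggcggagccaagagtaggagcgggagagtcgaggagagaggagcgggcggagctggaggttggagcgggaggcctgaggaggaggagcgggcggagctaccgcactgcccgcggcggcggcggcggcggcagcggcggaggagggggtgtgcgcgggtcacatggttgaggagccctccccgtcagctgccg
Per3: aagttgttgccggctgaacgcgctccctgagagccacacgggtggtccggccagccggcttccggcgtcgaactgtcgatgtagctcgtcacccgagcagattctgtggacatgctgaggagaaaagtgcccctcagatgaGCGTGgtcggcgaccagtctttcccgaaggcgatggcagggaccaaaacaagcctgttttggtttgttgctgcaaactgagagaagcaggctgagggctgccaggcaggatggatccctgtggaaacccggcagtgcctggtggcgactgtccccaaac
The second Nr1d1 window holds 1 E-box, and the first and the Per3 window hold 1 GCGTG each. Among 33469 promoter windows of this length 6.4% hold CACGTG and 29.7% hold GCGTG on either strand. The Nr1d2 window holds neither of these, but 5 matches to the GC box GGGCGG, which 33.1% of windows hold. TATAAA (14.2% of windows) is in none of the 4, and CCAAT (37.5%) is in the first Nr1d1 window and that of Nr1d2. These matches describe letters only.

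**Figure D2:**
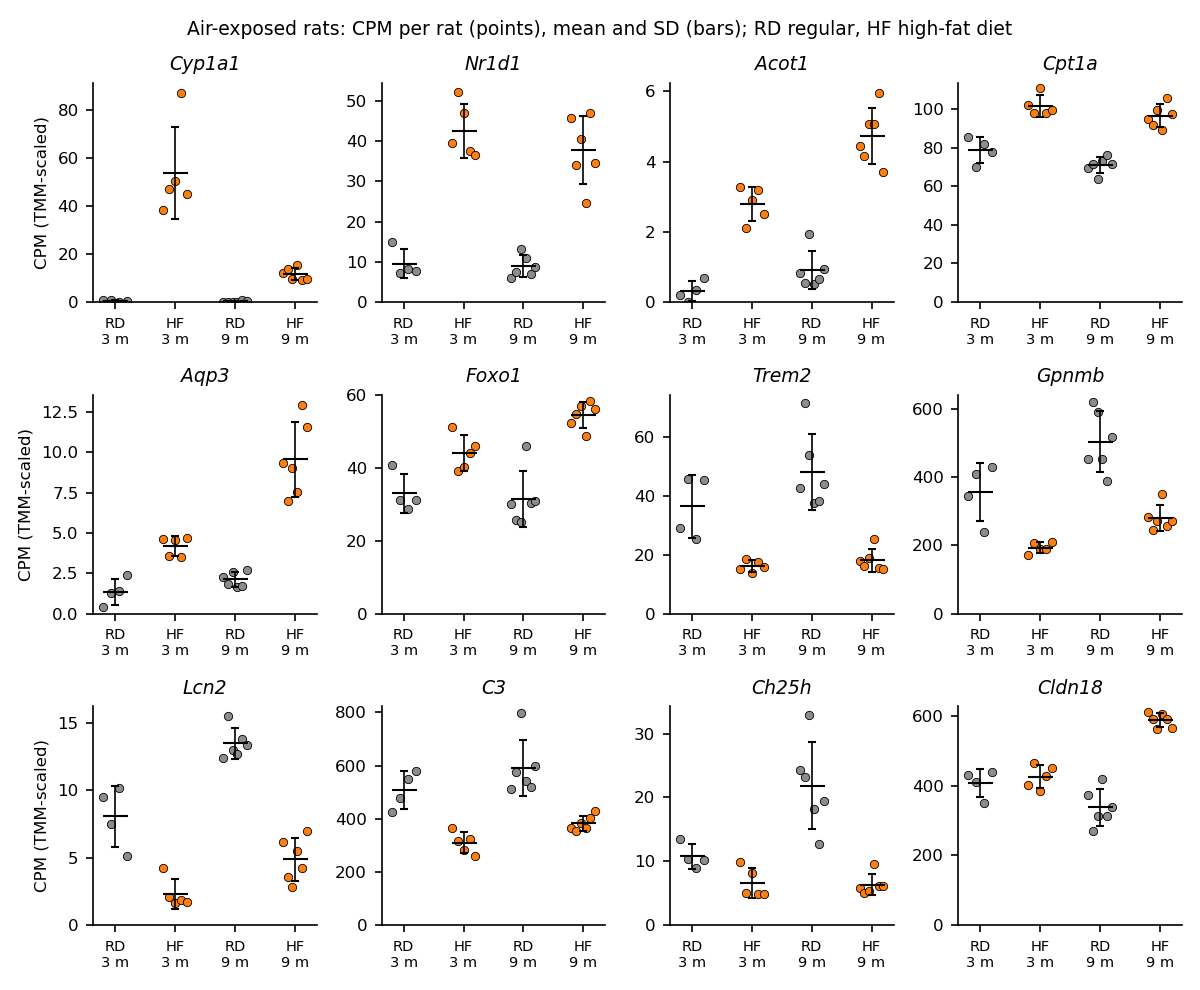
CPM of 12 genes in air-exposed rats on the regular (RD, grey) and high-fat diet (HF, orange) at 3 and 9 months; points are rats, bars the mean and SD. Cyp1a1, Nr1d1, Acot1, Cpt1a and Aqp3 are higher and Trem2, Gpnmb, Lcn2 and C3 lower on the high-fat diet at both times, whereas the diets overlap for Cldn18 at 3 months but not at 9 months.

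Genes of fatty acid oxidation tended upward. Of 28 tested members 8 rose and 1 fell (median 0.10), which is 32.1% called beside 15.2% of all genes. At 3 months 2 were called higher and 0 lower. The list had 5 calls without regular-diet rat 3 or high-fat rat 5. Acot1, a PPAR-alpha target that cleaves long-chain acyl-CoA, was 3.71, 4.75 and 5.94 CPM on the high-fat and 0.503, 0.731 and 1.95 CPM on the regular diet. Its groups did not overlap, and the log2 fold change was 2.46 ± 0.27 (adjusted p = 1.71e-06), beside 3.15 at 3 months and 1.39 under silica, both called. Cpt1a, the gate of mitochondrial fatty acid import, was 89.3, 96.0 and 106 CPM against 63.8, 71.7 and 76.4 CPM, a change of 0.44 ± 0.05 (adjusted p = 4.25e-06) and 0.37 at 3 months (adjusted p = 0.00831). Acadl, a long-chain acyl-CoA dehydrogenase, rose by 0.59 (adjusted p = 9.27e-05) but not at 3 months (-0.05), and the times differed by 0.64 (adjusted p = 0.00275). Pdk4, which diverts pyruvate from oxidation, rose by 0.51 (adjusted p = 0.034), with overlapping groups and a call lost without regular-diet rat 1, 3, 4 or 5 or high-fat rat 1, 3 or 5. Angptl4, an inhibitor of lipoprotein lipase, had a change of 0.20 (adjusted p = 0.50) and Ucp3, a mitochondrial carrier, one of -0.14 (adjusted p = 0.61).

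Lipid synthesis moved little and unevenly. Of 22 cholesterol synthesis and uptake genes 4 rose and none fell (18.2% called, close to the 15.2% of all genes; median 0.01), among them Srebf2, the sterol-sensing transcription factor, by 0.28 (adjusted p = 0.000932). Without regular-diet rat 3 or high-fat rat 5 or 6 the list had 1 call, and without regular-diet rat 1 or 2 or high-fat rat 1 it had 2. At 3 months 4 of the list were called higher and 1 lower. Of 20 fatty acid synthesis and desaturation genes 1 rose and 3 fell, again a share near that of all genes. Fads2, a desaturase of polyunsaturated fatty acids, rose by 0.28 (adjusted p = 0.0101), while Elovl5, an elongase of the same pathway, fell by 0.28 (adjusted p = 0.00206) and Dgat1, which makes triglyceride, fell by 0.38 (adjusted p = 0.00292). Fasn, the fatty acid synthase, was 915 to 1140 CPM against 979 to 1746 CPM, a change of -0.36 (adjusted p = 0.0296) that was lost without regular-diet rat 2, 3 or 6 or high-fat rat 1, 2 or 3. Srebf1 (0.02, adjusted p = 0.89) and Scd, the stearoyl-CoA desaturase (0.16, adjusted p = 0.12), did not pass. Under silica both were called higher (0.62 and 0.62), and the diet effect differed between air and silica by -0.60 for Srebf1 (adjusted p = 0.0209) and -0.45 for Scd (adjusted p = 0.0276).

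Lipid storage and cholesterol export fell where they changed. Of 16 lipid droplet, uptake and lipolysis genes 6 fell and none rose (median -0.08). Plin2, the coat protein of lipid droplets, was 151, 158 and 181 CPM against 197, 210 and 215 CPM without overlap, a change of -0.36 ± 0.06 (adjusted p = 0.000362). Lipa, the lysosomal acid lipase, and Abhd5, the co-activator of triglyceride lipase, had log2 fold changes of -0.41 and -0.39 (adjusted p = 0.000407 and 0.000304). Cd36, a fatty acid uptake receptor, had a change of -0.10 (adjusted p = 0.64). Of 13 cholesterol efflux and liver X receptor genes 4 fell and none rose (median -0.14). Ch25h, which makes 25-hydroxycholesterol, was 5.04, 5.94 and 9.58 CPM against 12.7, 21.3 and 32.9 CPM, a change of -1.77 ± 0.20 (adjusted p = 3.59e-06). Abcg1, a cholesterol exporter, had a change of -0.44 (adjusted p = 0.000219) and Nr1h3, the receptor LXR-alpha, one of -0.23 (adjusted p = 0.00364), whereas Abca1, another exporter, had a change of 0.04 (adjusted p = 0.80). No gene of these 2 lists was called in either direction at 3 months. With the library-set term all 10 calls of the 2 lists kept their sign and none passed.

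Genes of lipid-handling and alveolar macrophages fell. Of 17 tested genes of lipid-handling macrophages 12 were lower and none higher, with a median of -0.41 against -0.01 over all genes. Plin2, Lipa, Lpl, Fabp5 and Apoe of this list are also in the lipid lists above. The same holds for Abcg1 of the alveolar macrophage list below. The falls of these lists are therefore not separate results. Trem2, a lipid-sensing surface receptor, was 15.1, 16.9 and 25.4 CPM on the high-fat diet and 37.6, 43.4 and 71.6 CPM on the regular diet. All high-fat rats lay below all regular-diet rats, and the log2 fold change was -1.40 ± 0.14 (adjusted p = 7.23e-07). It was -1.18 at 3 months (adjusted p = 0.00143) and passed with the library-set term as well (-1.30, adjusted p = 0.0492). Gpnmb, a lysosomal glycoprotein, was 245, 271 and 352 CPM against 389, 486 and 620 CPM, again without overlap (-0.85 ± 0.11, adjusted p = 1.35e-05). Lgals3, which encodes a galectin, and Ctsk, cathepsin K, had changes of -0.98 (adjusted p = 4.8e-05) and -1.27 (adjusted p = 0.000301). Mmp12, the macrophage elastase, was 0.290, 1.65 and 5.89 CPM against 2.77, 6.06 and 22.0 CPM, with overlap and a change of -2.14 ± 0.51 (adjusted p = 0.00506). Spp1, osteopontin, had a change of -0.76 (adjusted p = 0.33).

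Of 14 alveolar macrophage genes 8 fell and none rose (median -0.48). Atp6v0d2, a proton pump subunit, was 0.890, 1.55 and 3.05 CPM against 3.45, 5.35 and 12.8 CPM (-2.03 ± 0.33, adjusted p = 0.000144). Mrc1, the mannose receptor, fell by 0.58 on the log2 scale (adjusted p = 8.33e-05). Marco, a defining receptor of these macrophages, was at 0 to 0.306 CPM in the high-fat and 0 to 0.649 CPM in the regular-diet rats, too low for a comparison. It is still 1 of the 14 tested and part of their median, as the filter on low counts used all 4 groups at 9 months. Chi3l3, of the lipid-handling macrophage list, was at 0 in all 12 rats. The summed level of the alveolar macrophage list was 699.8 to 793.6 CPM on the high-fat diet and 859 to 1158 CPM on the regular diet, and that of the lipid-handling list 3191 to 3699 against 4044 to 5519 CPM, neither overlapping. Of 12 monocyte and interstitial macrophage genes 5 fell and 1, Vcan, rose. Lyz2, lysozyme, which the list shares with the alveolar type 2 cell list, was 12151 to 14486 CPM against 15644 to 23307 CPM (-0.48, adjusted p = 0.00224) and makes up most of its sum. At 3 months 5 of the lipid-handling and 4 of the alveolar macrophage genes were called lower and none higher, 5 and 2 of them also at 9 months. Under silica 1 gene of the lipid-handling list was called higher and 1 of the alveolar list lower. With the library-set term all 20 calls of the 2 lists kept their sign, and 1 passed.

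Other genes of innate immunity fell in the same rats. Of 10 class II antigen presentation genes 6 fell and none rose (median -0.33). RT1-Ba, a class II chain, was 152, 154 and 158 CPM against 196, 215 and 233 CPM (-0.47 ± 0.07, adjusted p = 7.74e-05). Ctss, the protease that frees class II of its chaperone, RT1-Da, another chain, and Cd74, the chaperone itself, had changes of -0.51, -0.34 and -0.24 (adjusted p = 0.000361, 0.00197 and 0.0124). RT1 genes are a family of close copies, so reads may be divided among them. Of 27 chemokines 5 fell and 2 rose (median -0.32). Ccl3, Ccl6 and the neutrophil attractant Cxcl1 had changes of -0.88, -0.65 and -0.73 (adjusted p = 0.000131, 0.000145 and 0.0013), while Ccl2 did not pass (-0.77, adjusted p = 0.13). Cxcr1, a neutrophil chemokine receptor, was 8.95 to 12.0 CPM against 16.5 to 24.2 CPM (-1.04, adjusted p = 1.48e-06), and it was the only 1 of 10 neutrophil genes called (2 without regular-diet rat 2).

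Of 23 complement genes 6 fell and 1 rose (median -0.23). C3, the central component, was 353, 374 and 429 CPM against 513, 559 and 797 CPM, a change of -0.63 ± 0.11 (adjusted p = 0.000253) beside -0.71 at 3 months (adjusted p = 0.000491). C1qb, a chain of C1q made by macrophages, fell by 0.45 on the log2 scale (adjusted p = 0.0013). C1qa, C1qb and C1qc are also in the monocyte and interstitial macrophage list. Serping1, the C1 inhibitor, rose by 0.75 (adjusted p = 0.000784), from 52.1 to 131 CPM to 142 to 154 CPM. Lcn2, the siderophore-binding lipocalin, was 2.80, 4.88 and 6.98 CPM against 12.4, 13.2 and 15.5 CPM (-1.50 ± 0.20, adjusted p = 2.26e-05) and was called at 3 months too (-1.75, adjusted p = 0.00661). It is 1 of 3 falling members of the 19 acute phase and antimicrobial genes (21.1% called, beside 15.2% of all genes). Lbp, the lipopolysaccharide-binding protein, rose by 0.63 (adjusted p = 0.000459) and is the 1 rising member. Of 27 interferon response genes 5 fell and 1 rose (22.2% called, median -0.08). Gbp2, a guanylate-binding protein, and Ifih1, an RNA sensor, had changes of -0.32 and -0.22 (adjusted p = 0.00206 and 0.00598). Bst2, tetherin, rose by 0.97 (adjusted p = 0.000217).

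C4a-2 had 0 counts in all 6 regular-diet rats and 2.79 to 7.86 CPM in the high-fat rats, at least 59.7-fold higher against a floor of 3 counts over the 6 libraries. It follows the library split described above, is a close copy of other C4 genes, and had no estimate with the library-set term. The placeholder symbol LOC102723236, which the RefSeq table names as the 7SL RNA gene Rn7sl1, was singled out after its values were seen. It had 20192, 21450 and 23708 counts in high-fat rats 4, 2 and 5, but 39 to 756 in the other 3 and 5 to 883 in the regular-diet rats.

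The remaining largest rises held genes of transport, platelets and the cytoskeleton. Aqp3, a channel for water and glycerol, was 6.97, 9.19 and 13.0 CPM against 1.63, 2.04 and 2.69 CPM, without overlap (2.16 ± 0.24, adjusted p = 1.71e-06). It passed with the library-set term (2.17, adjusted p = 0.0492), at 3 months (1.59) and under silica (0.75). Its diet effect was larger in air than under silica by 1.41 (adjusted p = 0.0271). Within the 15 libraries on one side of the split, its change under silica was 0.75 and did not pass (edgeR, adjusted p = 0.0824). Slc40a1, the iron exporter ferroportin, was 2.67, 3.47 and 6.06 CPM against 0.865, 1.12 and 1.89 CPM (1.57 ± 0.28, adjusted p = 0.000496), and this effect exceeded that under silica by 1.56 (adjusted p = 0.0482). Gp6, the platelet collagen receptor, rose by 1.44 (adjusted p = 0.0174) with overlapping groups, a call lost without high-fat rat 3. Of 12 erythroid and platelet genes none was called, though the median was 0.80 and there were 3 calls without high-fat rat 4, 2 without regular-diet rat 5 and 1 without regular-diet rat 2; Itga2b, the platelet integrin, had a change of 1.07 (adjusted p = 0.058) and Pf4, platelet factor 4, one of 0.83 (adjusted p = 0.0778). Serpinb11, a serpin, rose by 1.49 with overlap (adjusted p = 0.0154). Myl12b, a myosin light chain, was 152, 173 and 192 CPM against 38.1, 65.9 and 106 CPM (1.40 ± 0.17, adjusted p = 4.75e-06), and at 3 months its change was 0.05. Among the 12 largest rises, which were chosen by their fold change in these same rats, 10 had groups that did not overlap, beside 37.3% of all called genes. Of the 10 tested at 3 months 8 had the same sign there, 4 of them called.

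The largest falls outside macrophage genes were in part of low level. Rgs1, a regulator of G-protein signalling in leukocytes, was 10.2 to 14.4 CPM against 17.0 to 37.0 CPM (-1.27, adjusted p = 7.65e-06). Fcrlb, an Fc receptor-like protein, was 1.16 to 2.13 CPM against 3.502 to 4.69 CPM (-1.36, adjusted p = 0.00205). Slc26a4, the anion exchanger pendrin, fell by 1.32 (adjusted p = 0.0117), with overlap and 14.2 CPM in high-fat rat 6 against 1.93 to 3.92 CPM in the other 5. Kctd4, Fstl4 and Mab21l3 had changes of -1.89, -1.42 and -1.36 (adjusted p = 0.00192, 0.00401 and 0.0163), with medians on the high-fat diet of 0.584, 1.39 and 0.363 CPM. Among the 12 largest falls, chosen in the same way, 8 had groups that did not overlap, beside 37.3% of all called genes. All 12 had the same sign at 3 months, 4 of them called, and 7 differed from the diet effect under silica.

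**Figure D3:**
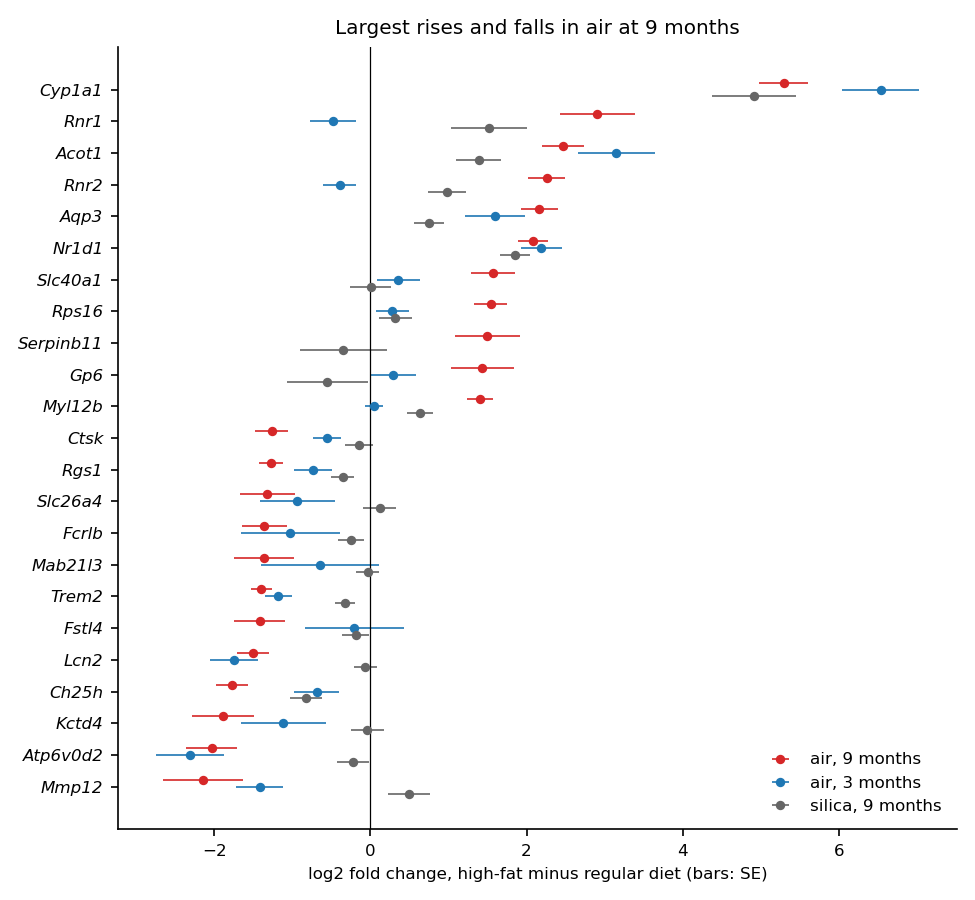
Log2 fold change, high-fat minus regular diet, of the 12 largest falls and of 11 of the 12 largest rises (C4a-2 left out, at 0 counts on the regular diet) in air at 9 months (red), in air at 3 months (blue) and under silica at 9 months (grey); bars are standard errors. Cyp1a1, Acot1, Aqp3 and Nr1d1 lie right of 0 in all 3 comparisons, and Rnr1 and Rnr2 lie left of 0 at 3 months.

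Epithelial and structural genes moved in both directions. Of 13 alveolar type 2 cell genes 4 fell and 1 rose (median -0.14). Their summed level was 27821 to 33876 CPM against 34318 to 49528 CPM, without overlap, but Lyz2 is a large part of it. The monocyte and interstitial macrophage list, most of whose sum is Lyz2, was 12587 to 14920 CPM against 16090 to 23804 CPM. Whether the type 2 genes other than Lyz2 separate as a sum was not tested. Sftpc, surfactant protein C, was 5076, 6294 and 6635 CPM against 6115, 7885 and 10261 CPM, overlapping (-0.40 ± 0.11, adjusted p = 0.0106). The lipid transporter Abca3 had a change of -0.28 (adjusted p = 0.00905) and Lamp3, of the lamellar body membrane, one of -0.36 (adjusted p = 0.00981), while Sftpd, surfactant protein D, had a change of -0.27 (adjusted p = 0.10). Of 12 alveolar type 1 cell genes 1 was called: Cldn18, a tight junction protein, 564, 593 and 613 CPM against 269, 327 and 421 CPM (0.80 ± 0.08, adjusted p = 1.07e-06). Its change was 0.07 at 3 months, and the times differed by 0.73 in the test of the difference. Clic5 and Ager of the same list had changes of 0.25 and -0.16 that did not pass (adjusted p = 0.0792 and 0.0907). Scgb1a1, the club cell secretoglobin, was 2539 to 4739 CPM against 1576 to 2859 CPM (0.55, adjusted p = 0.00905), the only 1 of 10 club and secretory genes called, beside a list median of 0.80. Without regular-diet rat 4 the club list had 5 calls and the type 1 list 3, and without regular-diet rat 6 or high-fat rat 6 the type 1 list had 2.

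Of 31 extracellular matrix genes 5 rose and 1 fell (19.4% called; median 0.05). Fn1, fibronectin, was 1286, 1387 and 1440 CPM against 835, 1057 and 1220 CPM (0.39, adjusted p = 0.00217), Fbln5, of elastic fibres, rose by 0.56 (adjusted p = 0.000948) and Col1a1, of type I collagen, by 0.34 (adjusted p = 0.0143). Col3a1, of type III collagen, fell by 0.22 on the log2 scale (adjusted p = 0.00273), and Eln, elastin, did not pass (0.31, adjusted p = 0.0507). Of 22 TGF-beta genes 6 rose and 1 fell (median 0.10), Tgfbr3, a co-receptor, by 0.56, Ltbp4, which holds latent TGF-beta in the matrix, by 0.36 and Smad4, the shared transducer, by 0.23 among the 6 (adjusted p = 6.74e-05, 0.00647 and 0.00224). Without regular-diet rat 2 or 3 the TGF-beta list had 4 calls and the endothelial list 1. Of 16 endothelial genes 3 rose and none fell (18.8% called; median 0.13), among them Kdr, the main VEGF receptor (0.51, adjusted p = 0.00583). With the library-set term the list medians were -0.17 for matrix, -0.10 for TGF-beta and -0.15 for endothelial genes, the opposite sign. The shares called of the matrix and endothelial lists lie close to the 15.2% of all genes.

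Genes of the glucocorticoid and oxidative stress responses fell more often than they rose. Of 18 glucocorticoid response genes 7 fell and 1 rose (median -0.25). Cebpd, a transcription factor, was 48.7, 55.5 and 62.9 CPM against 73.1, 107 and 113.99 CPM (-0.88 ± 0.11, adjusted p = 8.67e-06). Nfkbia, the inhibitor of NF-kappa-B, and Errfi1, a brake on EGF receptor signalling, had changes of -0.81 and -0.74 (adjusted p = 5.49e-05 and 0.000445), while the receptor's co-chaperone Fkbp5 did not pass (0.21, adjusted p = 0.49). None of the list was called at 3 months, where its median was 0.18. Of 26 oxidative stress genes 9 fell and 2 rose (median -0.16), with changes of -0.57 for Txn1, thioredoxin, and -0.35 for Gsta1, a glutathione transferase (adjusted p = 0.000318 and 0.00224). Hmox1, heme oxygenase, did not pass (-0.21, adjusted p = 0.0532). With the library-set term 1 member of the oxidative stress list passed. That member rose, and none of the falling ones passed. Without regular-diet rat 2 or 3 or high-fat rat 3 the list had 7 calls. Of 15 heat shock and chaperone genes 3 rose and 1 fell (26.7% called, median 0.05), with 2 calls without regular-diet rat 3 or 6 or high-fat rat 5. Of 20 insulin and growth factor genes 5 rose and 3 fell (median 0.05), with 5 calls without regular-diet rat 3. Foxo1, which insulin signalling restrains, was 48.8, 55.3 and 58.3 CPM against 25.1, 30.2 and 46.0 CPM (0.78 ± 0.10, adjusted p = 1.49e-05) and was called at 3 months (0.43) and under silica (0.39). Igf1, a growth factor, and Slc2a1, a glucose transporter, had changes of -0.45 and -0.41 (adjusted p = 0.000143 and 0.00125).

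RNA-binding proteins were often higher. Of 27 hnRNP and SR splicing proteins 13 were higher and none lower (median 0.18), beside 0 higher and 1 lower at 3 months (median -0.12) and 1 higher under silica (median 0.00). Hnrpd rose by 0.53, Hnrnpul2 by 0.58, Srsf2 by 0.30 and Hnrnpa3 by 0.25 (adjusted p = 3.27e-05, 6.71e-05, 0.000261 and 0.000272). All 13 calls kept their sign with the library-set term and none passed. Of 74 cytosolic ribosomal protein genes 12 fell and 5 rose (median -0.11), whereas at 3 months 12 rose and 2 fell (median 0.23). The share called at 9 months was 23.0%, beside 15.2% of all genes. Rps16 was 110.8, 127.5 and 133.9 CPM against 17.0, 40.3 and 79.8 CPM (1.54 ± 0.21, adjusted p = 2.77e-05) and Rps10 rose by 0.66 (adjusted p = 0.00106). Without regular-diet rat 2 or 3 or high-fat rat 5 or 6 this list had 10 or 11 calls. Ribosomal protein genes have many processed copies, so how their reads were assigned is uncertain. Of 75 nuclear-encoded oxidative phosphorylation genes 7 rose and 3 fell (median -0.06). The 13.3% called lies below the 15.2% of all genes. The ATP synthase subunits Atp5d and Atp5j and the complex I subunit Ndufb7 were higher by 0.58, 0.61 and 0.57 (adjusted p = 2.22e-06, 9.29e-05 and 0.000369). Without regular-diet rat 3 or high-fat rat 6 that list had 6 calls, and without high-fat rat 4 it had 16. The ribosomal RNA share and the library split moved with all of these genes, and their part in the result was not tested apart from the 2 fits above.

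Set beside the other diet comparisons, which share no rats with this one, the direction was kept more often than the call. At 3 months 449 of 15234 genes were called (2.95%; 1.65% higher, 1.3% lower). Of the 2307 genes called at 9 months and tested at 3 months, 68.1% had the same sign there, 126 were called in the same direction and 28 in the opposite one. The 3-month count was 63 without regular-diet rat 4 of that time. It was 29.8%, 28.7% and 29% of its size without regular-diet rats 2 and 3 and high-fat rat 3 of that time, and 55.9% and 45% without high-fat rats 1 and 4. The 126 are 5.42% of the 9-month and 28.1% of the 3-month calls. Under silica at 9 months 537 genes were called (3.52%; 1.82% higher, 1.7% lower). Of the 2325, 81.2% had the same sign, and 212 were called in the same direction, 9.12% of the air and 39.5% of the silica calls, with 5 opposite. The silica count was 260 without regular-diet silica rat 2, 262 without high-fat silica rat 5, and 321 to 354 without regular-diet silica rat 3 or high-fat silica rat 3, 4 or 6. In the silica comparison, 322 genes were called within the 15 libraries on one side of the split. These leave out regular-diet silica rats 1 and 2. The silica groups also differed in Rnr share, 2.60% to 5.35% on the regular and 7.29% to 7.85% on the high-fat diet. Within the 15 libraries Rnr1 and Rnr2 were still called higher (1.20 and 0.76, edgeR, adjusted p = 0.00697 and 0.00206). How far diet, this share and the split each account for the shared direction was not tested.

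A direct test of the 9-month against the 3-month diet effect in air called 819 of 15759 genes (5.2%). With the Rnr share as covariate edgeR called none (925 had an unadjusted p below 0.05), and with the library-set term 42 were. Of the 37 called differences of genes named here, 33 kept their sign with the covariate, and all 37 kept it and 5 passed with the library-set term (Rnr2, Khdrbs1, Ddx21, Ptov1 and Atp5d). Among the 6 with the smallest adjusted p in the positive direction were Rnr2 (2.65) and Khdrbs1, Pabpn1, Snrnp70 and Zbtb6, the last 4 with differences of 0.86, 0.77, 0.71 and 0.88. Khdrbs1, Pabpn1 and Snrnp70 encode an RNA-binding adaptor, the nuclear poly(A)-binding protein and a U1 splicing protein. Khdrbs1 was 74.1 to 78.8 CPM against 35.0 to 50.5 CPM at 9 months, without overlap. In the other direction stood Rpl14 and Rpsa, of the ribosome, Elovl5, Ddx21, a nucleolar helicase, Adcy7, an adenylyl cyclase, and Ptov1, with differences of -0.77, -0.59, -0.54, -0.54, -0.44 and -0.59. Each of these 6 was called higher at 3 months, and all but Ddx21 and Ptov1 lower at 9 months.

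**Figure D4:**
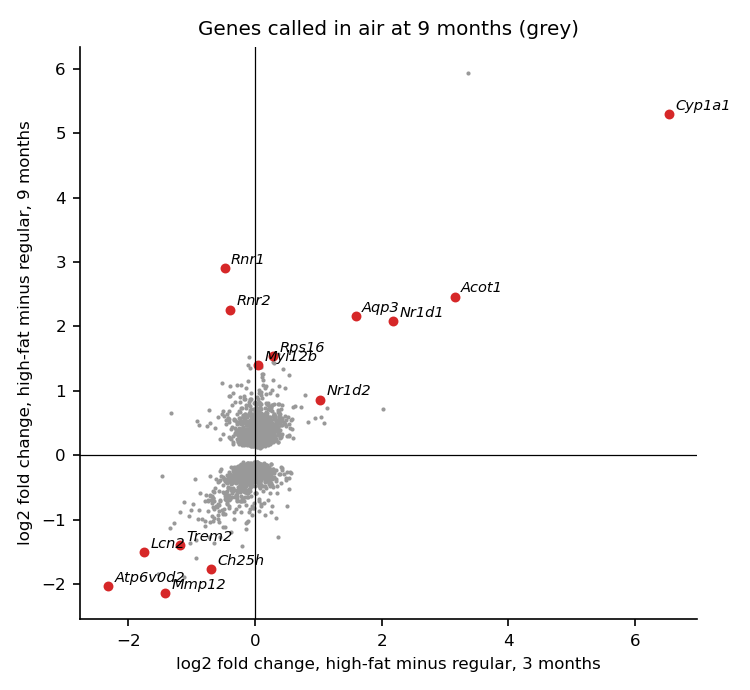
Log2 fold change, high-fat minus regular diet, of the genes called in air at 9 months and tested at 3 months: 3 months on the horizontal axis, 9 months on the vertical axis, with 14 genes marked in red. Cyp1a1, Acot1, Nr1d1 and Aqp3 lie high and right, Trem2, Lcn2, Mmp12 and Atp6v0d2 low and left, and Rnr1 and Rnr2 high and left of 0.

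The diet effect in air differed from that under silica for 167 of 15276 genes (1.09%). It did so for 116 with the Rnr share as covariate, 37 with the library-set term and 343 in DESeq2. Of the 37 called differences of genes named here, all kept their sign in both edgeR fits, 24 passed with the covariate and 9 with the library-set term. The count of 167 was 85, 90 and 104 without high-fat rats 3, 1 and 2, and 103 and 274 without regular-diet rats 2 and 4. The change in air minus that under silica was positive for Zbtb16, a glucocorticoid-induced transcription factor (1.95, adjusted p = 1.29e-05), which had a change of 0.19 in air (adjusted p = 0.38) and fell by 1.76 on the log2 scale under silica (adjusted p = 2.27e-07). Zfp366, Rcsd1, Hnrnpa3, Khdrbs1 and Tardbp followed, with differences of 0.88, 0.52, 0.35, 0.65 and 0.51. In the other direction were Cxcr1 (-1.06), Hk3, a leukocyte hexokinase (-0.96), Naaa, a lysosomal amidase (-0.88), Gpnmb (-0.90), Capn5 (-0.48) and Flvcr2, a heme-family transporter (-0.40). Hk3, Naaa and Gpnmb were called lower in air at 9 months (-1.03, -0.87 and -0.85) and at 3 months, while under silica their changes were -0.07, 0.02 and 0.06. Under silica Gpnmb stood at 1426 to 2090 CPM on the high-fat and 1524 to 2019 CPM on the regular diet.

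In all, 21 genes were called in the same direction in all 3 diet comparisons, 16 higher and 5 lower. Besides the lipid, clock and receptor genes above (Cyp1a1, Nr1d1, Nr1d2, Per3, Acot1, Cpt1a, Aqp3, Foxo1), the higher ones included Spry4, an inhibitor of receptor tyrosine kinase signalling (1.25 in air at 9 months, adjusted p = 1.49e-05), Midn, midnolin (0.70), and Pdgfb, a platelet-derived growth factor chain (0.59). The lower ones included Slc7a2, a cationic amino acid transporter (-0.92), Cyp26b1, which clears retinoic acid (-0.71), and Itgb8, an integrin that activates TGF-beta (-0.58). These genes were chosen by their calls, after their values were seen. Within the 15 libraries on one side of the split, Aqp3 and Cpt1a did not pass under silica (edgeR, adjusted p = 0.0824 and 0.192). Cyp1a1, Nr1d1, Nr1d2, Per3, Acot1 and Foxo1 passed there.

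**Figure D5:**
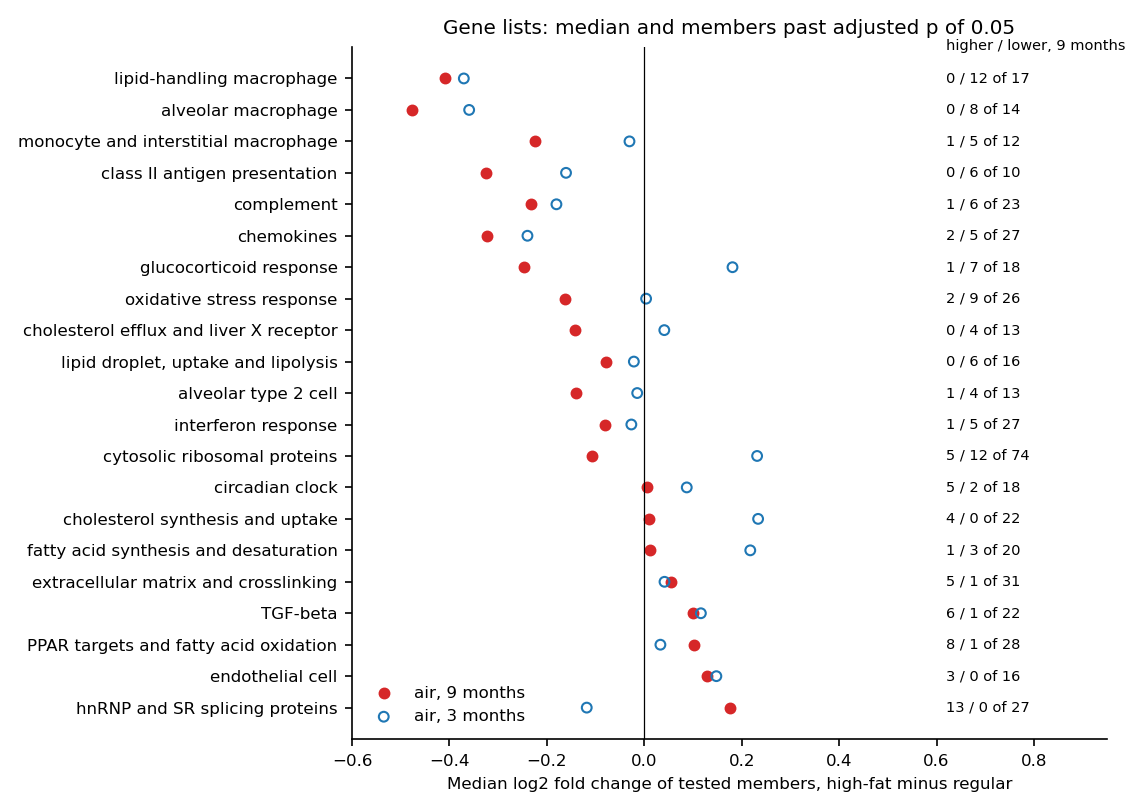
Median log2 fold change of the tested members of 21 gene lists, high-fat minus regular diet, in air at 9 months (filled red) and at 3 months (open blue); numbers give members called higher and lower at 9 months of those tested. The macrophage lists lie left of 0 at both times, and the splicing protein list lies right of 0 at 9 months (0.18) and left at 3 months (-0.12).

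Several lists held no called gene. None of 23 cell cycle, 27 histone, 16 T cell, 11 natural killer, 14 ciliated, 9 mesothelial and 16 cardiac muscle genes passed, and leaving out 1 rat gave at most 2 calls in any of these lists. The cardiac and striated muscle list had a median of 1.23, and its summed level ran from 235.9 to 2653 CPM in the high-fat and from 207.9 to 1675 CPM in the regular-diet rats, a wide spread within both groups. Adiponectin (Adipoq), the defining adipocyte gene, was at 0 to 0.459 CPM in both groups. Total haemoglobin counts overlapped between the groups (0.299% to 0.424% against 0.340% to 0.528%).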

How the data were processed

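Whole-lung RNA of 42 rats was sequenced, and 12 libraries enter the main comparison. The authors deposited raw counts per gene, 1 table per time. Per the submitters' processing notes HTSeq 0.6.1, SAMtools 0.1.19, TopHat2 2.0.9 with Bowtie2 2.2.9, Trimmomatic 0.35 and bcl2fastq 2.19 were used on Rnor_6.0; the annotation and the strand setting of counting are not given in the sources used here. Groups follow the sample titles. The 4 groups of a time were fitted together with edgeR 4.0.16 (R 4.3.3; TMM scaling, filterByExpr, quasi-likelihood test, no covariate), with Benjamini-Hochberg adjustment over all tested genes and a call at an adjusted p of 0.05. Standard errors come from the fold change and F statistic. Library measures were compared by exact permutation (SciPy 1.17.1). DESeq2 1.42.0 and limma 3.58.1 were alternatives, as were other scaling, no filter, a ribosomal RNA covariate and leaving out each rat; the library-set term was added after the data were seen. The calculation was tested on simulated data. No 2 of 91 library pairs within groups were identical.

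Named genes are the 12 largest rises and falls among called genes whose mean log2 CPM reached 1 (placeholder and antigen receptor symbols left out), up to 3 genes of lowest p per list, a panel of chosen genes, and the 6 smallest adjusted p in each direction of each difference. The gene lists and the comparison itself were chosen with earlier results of these data known. The labels name separate rats, so p-values measure the spread between rats of this study. Some genes that this rule covers are not reported here.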

Additional observations from a re-analysis of the deposited data

Results flagged for a closer look

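In 18 of 264 groups of 6 rats, 1 rat stood apart from the other 5 by Dixon's test, and chance alone flags about 1 in 20 such groups. Among the regular-diet rats the highest value stood apart for Acot1 (1.95 CPM), C3 (797.4 CPM), Flvcr2 (96.7 CPM), Foxo1 (46.0 CPM) and Lbp (28.3 CPM). Among the regular-diet rats the lowest value stood apart for Adcy7 (84.3 CPM). Among the high-fat rats the highest value stood apart for Atp6v0d2 (3.05 CPM), Ch25h (9.58 CPM), Gpnmb (351.7 CPM), Hnrnpa3 (253.4 CPM), Mmp12 (5.89 CPM) and Naaa (240.9 CPM). Also among the high-fat rats the highest value stood apart for Slc26a4 (14.2 CPM), Spp1 (10.5 CPM), Trem2 (25.4 CPM) and Gsta1 (52.3 CPM). Among the high-fat rats the lowest value stood apart for Ddx21 (39.9 CPM) and Rpsa (156.9 CPM). These values were kept in the fits.

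The diet effect in air differed between 9 and 3 months in the edgeR test of the difference for the following named genes, given as the log2 fold change at 9 months minus that at 3 months. The difference was positive for Rnr1 (3.38), Rnr2 (2.65), Myl12b (1.35), Rps16 (1.25), Bst2 (0.90), Zbtb6 (0.88), Khdrbs1 (0.86), Scgb1a1 (0.86) and Hnrnpul2 (0.83). Smaller ones in this direction were those of Pabpn1 (0.77), Hnrpd (0.76), Cldn18 (0.73), Snrnp70 (0.71), Spry4 (0.71), Serping1 (0.67), Npas2 (0.65), Acadl (0.64) and Tardbp (0.63). Next came Atp5d (0.62), Rcsd1 (0.54), Kdr (0.53), Ndufb7 (0.50), Atp5j (0.48) and Hnrnpa3 (0.37). The difference was negative for Cebpd (-1.14), Errfi1 (-0.88), Rpl14 (-0.77), Dgat1 (-0.61), Fasn (-0.61), Rpsa (-0.59), Ptov1 (-0.59), Ddx21 (-0.54) and Elovl5 (-0.54). Smaller ones in this direction were those of Srebf1 (-0.48), Adcy7 (-0.44), Cd74 (-0.34) and Nr1h3 (-0.28). With the Rnr share as covariate none of these 37 differences passed and 33 kept their sign (Rnr1, Bst2, Atp5j and Ndufb7 did not), and with the library-set term 5 passed and all 37 kept it.

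At 9 months the diet effect differed between air and silica in the same kind of test for these named genes, given as the log2 fold change in air minus that under silica. The difference was positive for Zbtb16 (1.95), Slc40a1 (1.56), Aqp3 (1.41), Rps16 (1.22), Bst2 (0.93), Zfp366 (0.88), Khdrbs1 (0.65), Zbtb6 (0.55) and Atp5j (0.54). Smaller ones in this direction were those of Rcsd1 (0.52), Cldn18 (0.52), Tardbp (0.51), Hnrpd (0.46), Npas2 (0.37) and Hnrnpa3 (0.35). The difference was negative for Mmp12 (-2.63), Kctd4 (-1.85), Atp6v0d2 (-1.81), Lcn2 (-1.43), Ctsk (-1.12), Trem2 (-1.07), Cxcr1 (-1.06), Ccl3 (-1.01) and Hk3 (-0.96). Smaller ones in this direction were those of Lgals3 (-0.93), Rgs1 (-0.91), Gpnmb (-0.90), Naaa (-0.88), C3 (-0.69), Srebf1 (-0.60), Abcg1 (-0.54), Fads2 (-0.48) and Capn5 (-0.48). Next came Nqo1 (-0.46), Scd (-0.45), Flvcr2 (-0.40) and Rpl14 (-0.36). With the Rnr share as covariate 24 of these 37 differences passed, and with the library-set term 9 did, all 37 with the same sign in both fits.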

How the results depend on the processing

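The count of 2325 genes called in air at 9 months lay between 1625 (without regular-diet rat 2) and 2746 (without regular-diet rat 4) when 1 rat was left out, and between 1885 and 2674 with RLE size factors, no filter on low counts, DESeq2, limma voom, edgeR's legacy fit, only the 2 air groups, or without Rnr1 and Rnr2. It was 1 with the Rnr share as covariate and 16 with the library-set term. The count of genes with a different diet effect at 9 and 3 months (819) was 0 with the Rnr share as covariate in edgeR's test and 42 with the library-set term, and 599 to 1118 when 1 rat was left out. With that covariate 925 genes had an unadjusted p below 0.05, against 3236 without it, and DESeq2 without the covariate called 897. For air against silica (167) it was 343 with DESeq2, 37 with the library-set term and 85 to 274 when 1 rat was left out. The silica count (537) was 322 within the libraries with counts on C4a-2 and 260 to 724 when 1 rat was left out. The 3-month count (449) was 721 with DESeq2 and 63 to 530 when 1 rat was left out. The single call with the Rnr share as covariate was 1 in every setting tried, and the share difference of 4.99 points stayed between 4.80 and 5.65 points.

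Of the log2 fold changes of 197 genes that the naming rule covers under the alternatives, 3667 stayed on their side of the threshold, with their direction kept or, where not called, with a move smaller than the spread between rats. Another 345 no longer passed, 82 newly passed, 23 that were not called changed sign by more than that spread, and 8 called values changed sign. With the Rnr share as covariate the sign changed for Rnr1 (-0.67), RT1-S3 (-0.082), Ndufb7 (-0.13), Snhg11 (-0.096) and Aplnr (-0.0088). With the library-set term it changed for Hspa8 (0.084), Cdh5 (-0.089) and Kit (-0.13). The cause was not tested. The fit of C4a-2 with the library-set term could not be estimated. No paired analysis was possible because the rats carry separate tags in each group and the replicate numbers are only in accession order. The 9-month and 3-month tables were fitted together only for the difference between times.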
